A study of Mus musculus with 2 samples.

Results

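Mitochondrial ribosomal protein genes were taken as the protein-coding genes of GENCODE release M21 whose symbols begin with Mrpl or Mrps followed by a digit. This rule gave 78 genes of the 55536 annotated genes in the tables, or of the 22028 that are protein-coding. Of the 78 genes, 51 encode proteins of the large subunit and 26 proteins of the small subunit. Subunits were assigned by structural place, so Mrps30 and Mrps18a count as large subunit genes. The remaining gene, Mrps36, carries an Mrps symbol, but its product is known as a component of the 2-oxoglutarate dehydrogenase complex of the mitochondrial matrix.

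The mitochondrial ribosome, or mitoribosome, is the translation machine of the mitochondrial matrix, and it makes only the few respiratory chain and ATP synthase subunits that the mitochondrial genome encodes. Its ribosomal RNAs are transcribed inside the organelle, while its proteins are encoded in the nucleus, made in the cytosol and imported. Some of these proteins descend from bacterial ribosomal proteins and others are found only in mitoribosomes. The adrenal cortex depends on mitochondria for more than ATP, since the first and last steps of steroid hormone synthesis take place on the inner mitochondrial membrane.

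The samples were adrenal glands of male B6Cast F1 mice, the first-generation hybrids of C57BL/6J and CAST/EiJ, at postnatal day 10, with no treatment named. Total RNA was sequenced as 1 library per sample from 300 ng of RNA with ERCC spike-in transcripts. Both libraries belong to one group, labelled as 2 biological replicates, and there is no second condition to compare them with. The labels number the animals 3 and 4 in one field, but give both samples the same donor identifier and the same animal number in another. The spread between the libraries may therefore be technical, and with 1 library per replicate no test was made for single genes.

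Expected counts totalled 36982665 in replicate 1 and 38984236 in replicate 2. Markers fixed for the adrenal cortex (6 of 6) and for chromaffin cells of the medulla (5 of 5) were detected in both libraries, between 109 and 1854 TPM, a measure of transcript abundance per length that is scaled to a fixed total in each library. All 7 brown adipocyte markers, 5 liver markers and 5 skeletal muscle markers were also present, and the 3 kidney markers were at 0. The summed TPM of the liver markers was 4250 in replicate 1 and 13299 in replicate 2, and that of the muscle markers 273 and 745. The cortex markers summed to 5834 and 5087 TPM, and the brown adipocyte markers to 3483 and 3076. The share of other tissues' RNA in the values below was not tested, and in bulk tissue fewer cells of a type and less RNA per cell cannot be told apart.

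Several genes in the group have near-identical copies elsewhere in the genome, and for Mrpl23 most counts of the pair stood on the copy in the gene table. The sequences are shown first, for how alike the copies are. Mrpl23 (chr7:142532686-142540747, mm10) encodes a large subunit protein at the exit of the peptide tunnel. Its processed pseudogene Mrpl23-ps1 (chr2:74591330-74591909) is an intronless copy of the mRNA. The coding transcript Mrpl23-201, of 692 bases in 5 exons, and Mrpl23-ps1, of 580 bases, share an unbroken identical run of 540 bases. That run holds the whole coding sequence of Mrpl23-201, of 441 bases. The longest annotated coding sequence of Mrpl23 has 519 bases, of which 81.7% aligned to the copy. The first 120 coding bases are shown for Mrpl23-201 and Mrpl23-ps1, with the start codon in capitals. The stretch of the copy lies at chr2:74591773-74591892 on the minus strand.
Mrpl23-201: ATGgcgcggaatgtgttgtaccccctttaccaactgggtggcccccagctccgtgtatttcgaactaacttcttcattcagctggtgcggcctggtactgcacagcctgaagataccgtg
Mrpl23-ps1: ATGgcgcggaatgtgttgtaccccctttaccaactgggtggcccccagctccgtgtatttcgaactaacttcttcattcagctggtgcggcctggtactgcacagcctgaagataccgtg

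These lines are the same at every base. Of the 481 windows of 100 bases in Mrpl23-ps1, 441 occur unchanged in Mrpl23-201 (91.7%), so a read of that length from most of the copy would match both. Of the 593 windows of Mrpl23-201, 441 occur in the copy (74.4%), and the other 152 do not.

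A second pair, Mrps33 and its processed pseudogene Gm5776, differs at a single base of the coding sequence. Mrps33 encodes a small subunit protein. The substitution is G171A, counted from 1 at the first coding base of Mrps33-201, with the base of Mrps33 first. It is in capitals in the stretch of 100 bases below, coding bases 121 to 220 of Mrps33 and chr7:54412259-54412358 on the minus strand for Gm5776.
Mrps33: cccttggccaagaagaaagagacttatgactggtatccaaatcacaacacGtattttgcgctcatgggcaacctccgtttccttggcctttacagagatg
Gm5776: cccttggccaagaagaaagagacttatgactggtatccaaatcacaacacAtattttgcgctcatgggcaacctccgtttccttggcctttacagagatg

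Mrpl48, whose product sits in the central protuberance of the large subunit, has a more diverged copy, Mrpl48-ps, with 12 differing bases over the coding sequence of Mrpl48-208. The stretch of 120 bases with most differences holds 7 of them, in capitals (coding bases 340 to 459, and chr4:88599352-88599471 on the minus strand in the copy).
Mrpl48: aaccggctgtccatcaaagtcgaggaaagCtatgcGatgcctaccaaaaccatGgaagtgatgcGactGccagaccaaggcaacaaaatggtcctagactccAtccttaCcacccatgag
Mrpl48-ps: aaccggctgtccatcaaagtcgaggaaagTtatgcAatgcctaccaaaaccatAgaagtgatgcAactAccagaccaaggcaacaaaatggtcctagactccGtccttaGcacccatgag

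Nearly all of the genes were detected. With detection set at 1 TPM or more in both libraries, 77 of the 78 genes were detected, against 56.7% of the 22015 nuclear protein-coding genes. Mrpl23 was the exception, with 0.71 TPM in the first replicate and 1.68 TPM in the second. Over the 78 genes the median was 31.4 TPM in replicate 1 and 30.7 in replicate 2, beside 9.58 and 9.74 TPM over the 12487 detected protein-coding genes. Of the 77 detected members, 76 lay above the median detected gene and 56 above the percentile 75 by mean TPM. Between 532 and 2780 expected counts per library stood behind each of these 77 genes.

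**Figure D1:**
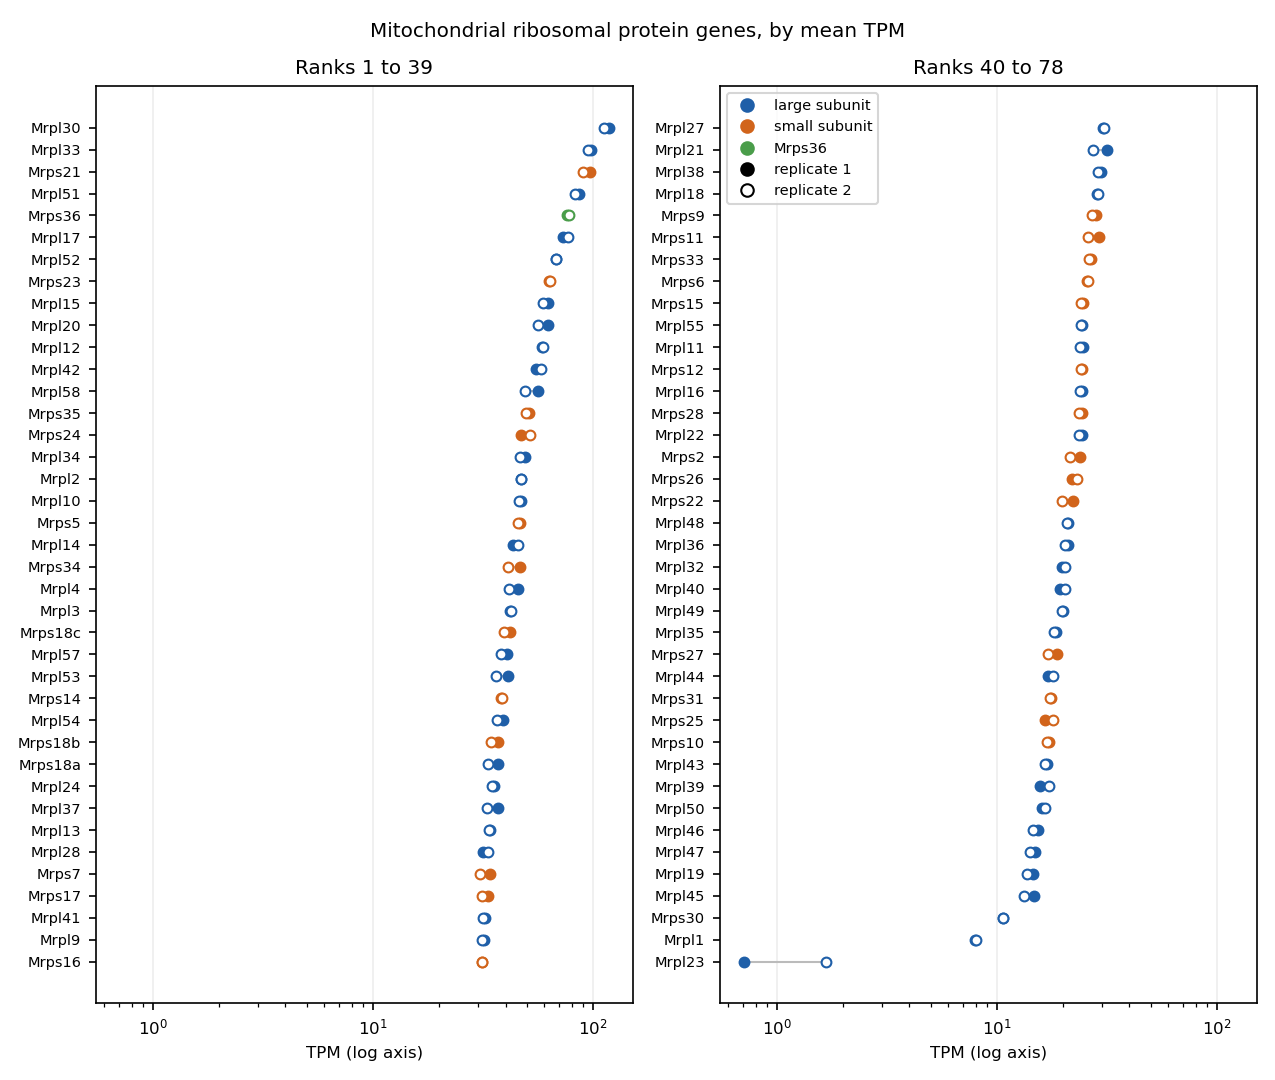
TPM of each of the 78 genes (log axis) in replicate 1 (filled) and replicate 2 (open), in order of mean TPM and coloured by subunit. Apart from Mrpl23 the points of a gene lie close together, from Mrpl30 at 115 TPM to Mrpl1 at 7.96 TPM (means).

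The 10 genes with the highest mean levels came from both subunits. Mrpl30 (chr1:37890477-37898535), a large subunit protein of bacterial descent, was highest, with 117.6 TPM (replicate 1) and 112.5 TPM (replicate 2). It was followed by Mrpl33 (97.4 and 94.5 TPM), Mrps21 (96.8 and 89.5 TPM) and Mrpl51 (86.5 and 82.9 TPM). Mrpl33 is a small protein of the large subunit, and Mrps21 a small subunit protein, both with bacterial counterparts, whereas Mrpl51 has none.

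Mrps36, the dehydrogenase component, followed at 76.0 and 77.9 TPM. Mrpl17 (72.8 and 77.0 TPM), Mrpl52 (68.1 and 67.8 TPM), Mrps23 (62.8 and 63.7 TPM), Mrpl15 (62.6 and 59.3 TPM) and Mrpl20 (62.6 and 55.9 TPM) completed the 10. Neighbours in this order could lie closer than their replicates: Mrpl15 and Mrpl20 both had 62.6 TPM in replicate 1, and 59.3 and 55.9 TPM in replicate 2.

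At the low end Mrpl1 (chr5:96209493-96266727), the protein of the mobile L1 stalk at the exit site for transfer RNA, had 7.91 and 8.01 TPM. Mrps30, which despite its symbol is a large subunit protein particular to mitochondria, had 10.7 TPM in both libraries. Mrpl45, the inner membrane anchor of the mitoribosome, had 14.8 and 13.3 TPM. The other genes among the 10 lowest were Mrpl19, Mrpl47, Mrpl46, Mrpl50, Mrpl39 and Mrpl43, with means between 14.1 and 16.7 TPM, and Mrpl23. All 10 belong to the large subunit, which holds 51 of the 78 genes. Mrpl23 is among them only without its copy Mrpl23-ps1, and had 38.4 and 36.8 TPM with the copy added. By mean TPM the lowest small subunit gene was Mrps10, at 17.3 and 16.9 TPM. The lowest value of any small subunit gene in replicate 1 was 16.45 TPM.

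The levels were lower for longer genes. Across 77 genes, without Mrpl23, log2 mean TPM and log2 effective length were inversely related (Pearson r -0.71, Spearman rho -0.67). TPM is itself divided by effective length, and the genes share both libraries, so this is a description only. The median effective length was 891 bases for the 78 genes and 2304 bases for the detected protein-coding genes.

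The levels were then grouped by functional region of the ribosome. Of the small subunit genes in the decoding and mRNA channel, Mrps5 had 46.7 and 45.6 TPM and Mrps24 had 47.1 and 51.5 TPM. Mrps12, which monitors codon pairing, had 24.2 and 24.0 TPM, and Mrps2 had 23.8 and 21.5 TPM. Mrps24 and Mrps5 thus lay above Mrps12 and Mrps2 in both libraries, with no overlap.

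The 5 genes at the peptidyl transferase core, where peptide bonds form, fell into a higher and a lower set in the gene table. Mrpl2 had 47.3 TPM in both libraries, Mrpl4 had 45.5 and 41.6 TPM, and Mrpl3 had 41.9 and 42.3 TPM. Mrpl27 (30.4 and 30.6 TPM) and Mrpl16 (24.2 and 23.9 TPM) were lower in each library. A second quantification deposited for each library, described below, gave another order. There Mrpl27 was above Mrpl2 (74.7 and 70.0 TPM) and Mrpl4 (77.6 and 65.9 TPM).

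In the stalk that recruits translation factors, Mrpl12 was highest at 58.6 and 59.4 TPM. It is present in several copies per ribosome and is also known to bind the mitochondrial RNA polymerase. Its anchor Mrpl10 had 47.2 and 46.2 TPM, and Mrpl11, at the stalk base, 24.5 and 23.9 TPM. Mrpl53 and Mrpl54, both particular to mitochondria, were between these, at 40.9 and 36.2 TPM and at 38.9 and 36.8 TPM.

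The 6 genes of the central protuberance, which contacts the small subunit, ranged from 15.4 TPM (Mrpl46) to 29.6 TPM (Mrpl38) in replicate 1, and from 14.6 to 28.9 TPM in replicate 2. At the exit tunnel, Mrpl24 (35.6 and 34.5 TPM) and Mrpl22 (24.3 and 23.6 TPM) were above Mrpl47 (14.9 and 14.2 TPM) and the anchor Mrpl45. The median of this region, 14.9 TPM in replicate 1 and 14.2 TPM in replicate 2, rests on the low value of Mrpl23. With the TPM of Mrpl23-ps1 added to that of Mrpl23, a step chosen after seeing the data, the median was 24.3 and 23.6 TPM.

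Neither subunit nor origin separated the levels by much. The medians were 31.6 and 31.4 TPM over the large subunit genes, and 28.6 and 26.7 TPM over the small subunit genes. On the log2(TPM + 0.1) scale the large subunit median was higher by 0.19 ± 0.06 (SD, n = 2 libraries), a fraction of the SD over the 78 genes (0.98 and 0.90). The sign depends on the summary, since the difference of means was -0.07. The 46 genes classed as bacterial-type had medians of 31.6 and 30.9 TPM. The 32 classed as mitochondria-specific, which include Mrps18a, Mrps18b and Mrps36, had medians of 28.2 and 27.5 TPM. The log2 difference was 0.17 ± 0.0043 (SD, n = 2 libraries), also a fraction of the SD over the 78 genes. The SD over libraries does not cover the spread among genes, and the difference of means was 0.10.

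The group holds one family of paralogs, related to the bacterial protein S18: Mrps18b and Mrps18c, whose products sit in the small subunit, and Mrps18a in the large. Mrps18a had 37.1 and 33.2 TPM, Mrps18b 36.9 and 34.5 TPM, and Mrps18c 42.1 and 39.3 TPM. Mrps18c was the highest in both libraries, and the order of the other two changed between them.

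The group as a whole was set beside other proteins that work in fixed complexes. The 84 cytosolic ribosomal protein genes had medians of 310 and 299 TPM, and the 85 nuclear genes of the respiratory chain and ATP synthase 209 and 217 TPM. Both medians were several times those of the mitoribosomal genes. Over the members at 1 TPM or more in both libraries, the SD of log2(TPM + 0.1) was 0.78 and 0.77 for the mitoribosomal genes, 1.27 and 1.18 for the cytosolic ribosomal genes, and 1.64 and 1.53 for the respiratory chain genes. Over the 12487 detected genes it was 1.74 and 1.72. Low outliers of the comparison lists include Rpl3l, at 1.71 and 3.99 TPM, and Cox8c, at 0 in both libraries and so outside these SDs. Both are known as tissue-restricted paralogs.

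**Figure D2:**
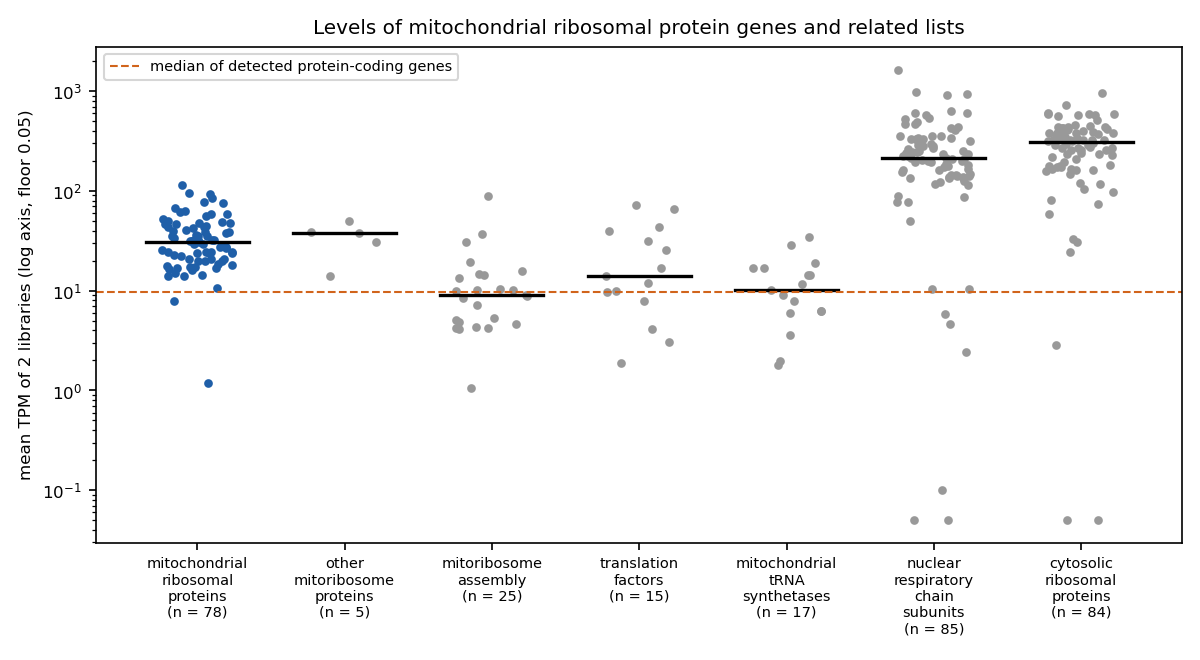
Mean TPM of each gene (points, log axis, values under 0.05 drawn at 0.05) in 7 lists, with the list median as a bar and the median of the detected protein-coding genes as a dashed line. The mitoribosomal genes form a narrow band around 31.0 TPM, below the cytosolic ribosomal proteins and respiratory chain subunits and above most genes of mitoribosome assembly, translation factors and tRNA synthetases.

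The other genes of mitochondrial translation were mostly lower. An exception was the set of 5 mitoribosome proteins with other symbols. Aurkaip1 had 51.6 and 48.4 TPM, Ptcd3 39.5 and 38.1 TPM, Dap3 38.5 and 38.0 TPM, Chchd1 31.6 and 30.5 TPM, and Gadd45gip1 14.5 and 13.3 TPM. Each lay within the range of the 78 genes, and their median was 38.5 and 38.0 TPM.

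The 25 assembly factors, which process ribosomal RNA and join the subunits, had medians of 8.98 and 8.86 TPM. C1qbp, a matrix chaperone of the mitoribosome, was highest (92.8 and 84.3 TPM), ahead of Mpv17l2 (38.97 and 35.08 TPM) and the RNA helicase Dhx30 (31.23 and 29.97 TPM). The lowest were Mrm2 and Tfb1m, which methylate ribosomal RNA (4.37 and 3.99 TPM, and 4.34 and 4.00 TPM), and Ybey, an RNA endonuclease (1.13 and 0.98 TPM).

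The 15 translation factors and mRNA-binding partners had medians of 14.7 and 13.6 TPM. Tufm, the elongation factor that delivers transfer RNA, had 72.8 and 71.2 TPM, Slirp, which stabilises mitochondrial mRNA, 66.4 and 64.7 TPM, and the translocase Gfm1 45.4 and 40.6 TPM. Mtfmt, which formylates the initiator transfer RNA (4.55 and 3.72 TPM), and the release factors Mtrf1l (3.17 and 2.97 TPM) and Mtrf1 (1.94 and 1.80 TPM) were lowest. The 17 mitochondrial tRNA synthetases had medians of 10.4 and 10.1 TPM, from Iars2 (35.7 and 34.1 TPM), Fars2 and Lars2 down to Wars2, Pars2 and Mars2 (1.94 and 1.66 TPM).

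The ribosomal RNAs that these proteins package were on another scale. The 12S RNA gene mt-Rnr1 had 57920 TPM in replicate 1 and 66394 TPM in replicate 2, and the 16S RNA gene mt-Rnr2 81156 and 92050 TPM. With both libraries scaled by TMM, a normalisation that balances most genes, they were 1.16-fold and 1.15-fold higher in replicate 2.

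The libraries were then compared gene by gene as a measure of replicate error. The ratio of replicate 2 to replicate 1 was taken from the TMM-scaled expected counts. Of the 77 members with a mean of at least 100 counts, 0 were more than 25% apart, that is, with the higher library over 25% above the lower. The share past 25% was 17.9% of all 12491 nuclear protein-coding genes with as many counts. It was 11.3% of the 6042 genes whose mean counts lay within the range of the members (541 to 2771). Past 2-fold were 0 members and 4.62% of the 12491 genes. The SD of the log2 ratio was 0.073 over the members and 0.45 over the 12491 genes.

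**Figure D3:**
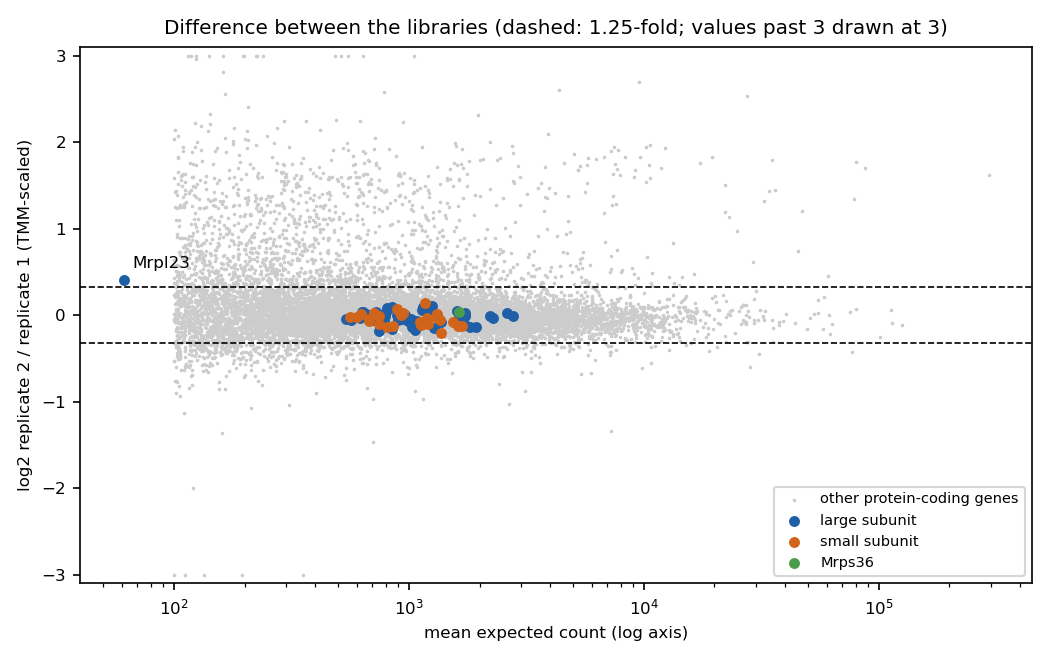
Log2 ratio of replicate 2 over replicate 1 against mean expected count (log axis) for nuclear protein-coding genes with at least 100 counts (grey) and for the 78 genes (coloured by subunit), with 25% higher or lower as dashed lines. The members lie between -0.20 and 0.15, apart from Mrpl23 at 0.40 with a mean of 61.2 counts.

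Small shifts were still present. The median log2 ratio was -0.02, with 50 members lower and 27 higher in replicate 2, where 50.7% of the 12491 genes were lower. The split depends on the scaling: 71 of 77 members were lower with library totals and 68 of 77 with spike-in totals. Other genes moved the same way. Of 12078 detected protein-coding genes with at least 100 counts, 8058 were lower with library totals and 7620 with spike-in totals. Of 82 cytosolic ribosomal protein genes, 74 and 69 were lower. The exact binomial (Clopper-Pearson) 95% interval of the fold, which covers counting error only, left out 1 for 12 of the 77 members, of which 11 were lower in replicate 2. It left out 1 for 46.3% of the 12491 genes, and for 45% of the 6042 genes in the members' range of counts.

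The lowest ratios belonged to Mrps34 and Mrpl21. Mrps34, a small subunit protein needed for stability of that subunit, had 1462 counts in replicate 1 and 1271 in replicate 2, a fold of 0.870 (0.807 to 0.939). Mrpl21 had 796 and 703 counts, a fold of 0.884 (0.798 to 0.980). Mrpl58, a ribosome-bound hydrolase that rescues stalled ribosomes, followed at 1127 and 999 counts (0.887, 0.814 to 0.967), and then Mrpl53 and Mrpl20 (0.898 and 0.902).

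The highest ratio belonged to Mrps24, with 1114 and 1232 counts and a fold of 1.11 (1.02 to 1.20). The next, Mrpl39 (1.08), Mrpl44 (1.07), Mrpl28 (1.06) and Mrpl14 (1.06), had intervals that included 1. Mrpl23, below the count minimum, had 52.7 and 69.7 counts, a fold of 1.32 (0.912 to 1.93).

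Related lists were compared in the same way. The number past 25% was 0 of 5 for the other mitoribosome proteins, 0 of 25 for assembly, 0 of 15 for translation factors and 1 of 17 for tRNA synthetases, beside the same 17.9%. The synthetase was Cars2, at 21.03 and 12.75 TPM, a log2 ratio of -0.61. Among cytosolic ribosomal proteins 1 of 82 passed, and among respiratory chain genes 2 of 81, and these 3 (Rpl3l, Atp5g2 and Cox6a2) were also past 2-fold. Of the 81 respiratory chain genes, 63 were higher in replicate 2. The median log2 ratio over all 81 was 0.04, and it was -0.04 with library totals.

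Factors known to drive nuclear genes of mitochondria were listed separately. Of 9 regulators 2 were more than 25% apart, beside 17.9% of the 12491 genes. They were the coactivators Ppargc1a, at 25.2 and 15.7 TPM (log2 ratio -0.80), and Pprc1, at 10.1 and 12.1 TPM (0.33). Ppargc1a is also one of the 7 brown adipocyte markers, of which 3 were higher and 4 lower in replicate 2 (median log2 ratio -0.01). Among them Ucp1 had 1566 and 1149 TPM, and Cidea 434 and 440 TPM. The DNA-binding factors Nrf1 (7.82 and 7.31 TPM), Gabpa (22.1 and 20.3 TPM) and Yy1 (20.4 and 22.1 TPM) stayed within 25%.

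The low value of Mrpl23 was not shared by the second quantification deposited for each library, a transcript table made directly from the reads. In the gene table, Mrpl23 had 0.71 and 1.68 TPM, and Mrpl23-ps1 had 37.7 and 35.1 TPM with 663 and 627 expected counts. In the second table, Mrpl23 had 67.8 and 64.7 TPM with 743 and 752 estimated counts, and Mrpl23-ps1 was listed at 0 in both. Together the pair had 716 and 697 counts in the gene table, most of them on the pseudogene, and 38.4 and 36.8 TPM, a level among the other members.

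The transcripts of Mrpl23 show where its few counts stood. In the alignment-based table the coding transcript Mrpl23-201 had 0 counts in replicate 1 and 10.5 in replicate 2. The longest retained-intron transcript, Mrpl23-205, of 3715 bases, had 44.5 and 39.6 counts. The TPM of Mrpl23 in replicate 1, 0.71, was also below the lower bound deposited with it, 1.10, and no other member lay outside its own bounds. The tables do not tell which locus a read of the shared sequence came from.

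Near-identical copies were searched for all 78 genes. With at least 90% identity over at least 50% of the coding sequence, 26 members had 45 copies, of which 41 are annotated as processed pseudogenes. The 45 include Gm42688 and Gm43809, which overlap Mrpl53 and Mrpl33 on the same strand and are not separate loci. Only 5 of the 45 reached 1 TPM in both libraries in the gene table, and 2 did in the second table. For 18 of the 26 members, copies took under 1% of the combined counts in each library.

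After Mrpl23 the next largest shares stood on copies of 5 genes. Gm42688, annotated as protein-coding, overlaps Mrpl53 on the same strand and holds its whole coding sequence, and it had 16.3% and 13.5% of the combined counts. Mrpl48-ps had 12.4% and 13.2% with Mrpl48, and AC154457.3 had 10.8% and 9.10% with Mrps10. Gm5776, the single-base variant shown above, had 6.79% and 9.74% with Mrps33, at 6.96 and 9.45 TPM. Gm13328 had 7.88% and 6.49% with Mrps5.

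In the second table Gm5776 was listed at 0 in both libraries, and Mrpl48-ps at 0 and 0.517 TPM. AC154457.3 had 8.49 and 6.34 TPM there, and Gm42688 6.50 and 4.70 TPM. The assignment between a member and its copy thus differed between the quantifications from pair to pair. With the TPM of their copies added, Mrps33 had 33.8 and 35.7 TPM, Mrpl48 27.4 and 27.6 TPM, and Mrps10 22.1 and 20.7 TPM.

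**Figure D4:**
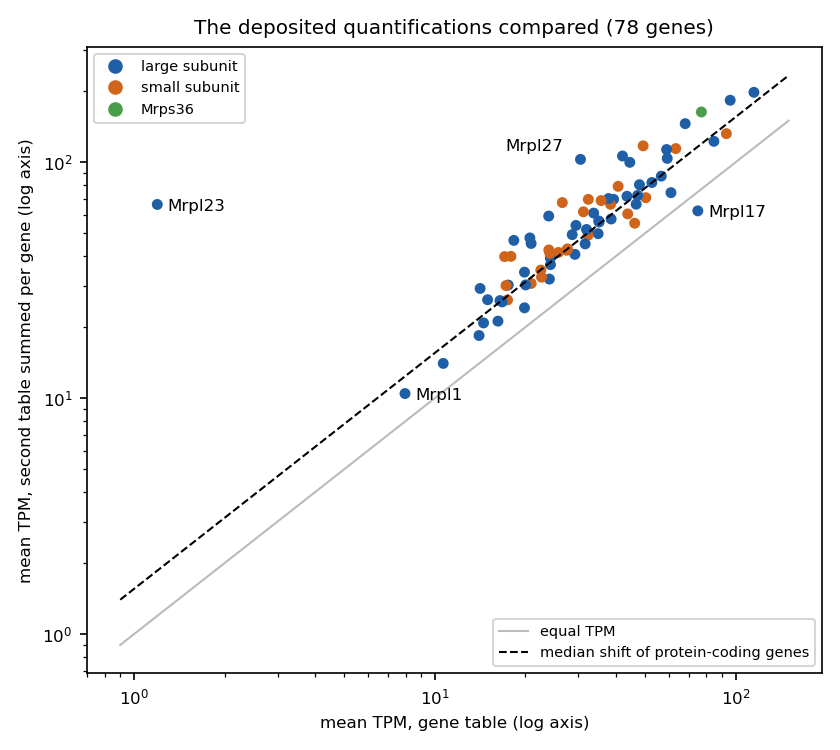
Mean TPM of the 78 genes in the gene table (x, log axis) and in the second table summed per gene (y, log axis), with the line of equal TPM and the median shift of protein-coding genes (dashed). Mrpl23 stands far above the dashed line and Mrpl17 below it.

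For the other genes the quantifications were compared relative to their overall shift. Over 12837 protein-coding genes the second table was higher by a median of 0.64 on the log2 scale, and over the members by 0.71. Relative to that shift, 9 of the 78 members differed by more than 1.5-fold, 8 of them higher and 1 lower in the second table, beside 6.25% of the 12837 genes. The authors' effective lengths are 99 bases shorter than the transcripts in the alignment-based tables, and 333 and 329 bases shorter in the second table, which weighs on short transcripts most.

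After Mrpl23 (5.29 on the log2 scale, relative to the shift) the largest differences were Mrpl27 at 1.12, Mrpl17 at -0.90, Mrps33 at 0.71 and Mrpl35 at 0.71. Mrpl27 had 30.4 and 30.6 TPM in the gene table and 103.9 and 101.8 TPM in the second. Mrpl17 had 72.8 and 77.0 TPM in the gene table and 62.1 and 62.4 TPM in the second. Its sixth place by level therefore holds only for the gene table.

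The isoform behind a Mrpl17 value differed too. In the alignment-based table its short coding transcript Mrpl17-204, of 459 bases, had 40.2 and 43.2 TPM. In the second table that transcript had 0 and 5.12 TPM, and the nonsense-mediated decay transcript Mrpl17-203 had 54.5 and 50.3 TPM.

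The transcripts assigned to a member were not always coding ones. Total RNA holds unspliced and partly spliced RNA besides mature mRNA, and the annotation gives each transcript a class. The 78 genes have 343 annotated transcripts. The most abundant one was of the protein_coding class for 61 genes, of the nonsense-mediated decay class for 6, of the processed transcript class for 6 and of the retained intron class for 5 in the alignment-based table.

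Protein_coding transcripts held a median of 95.0% of a member's TPM in that table. They held under 50% for 18 of the 78 genes (23.1%), against 7.69% of the detected protein-coding genes. In the second table these values were 17 genes (21.8%) and 9.85%. Under 50% in both quantifications were 14 genes.

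Some of the highest members were among them. For Mrpl51 the coding transcript Mrpl51-201, of 3427 bases, had 2.20 and 2.12 TPM, and the processed transcript Mrpl51-202, of 855 bases, had 55.3 and 54.2 TPM. The coding share was 2.54% and 2.56%, and 3.15% and 3.47% in the second table. For Mrpl57 the coding share was 2.72% and 2.75%, with the retained-intron transcript Mrpl57-202, of 519 bases, at 39.3 and 37.1 TPM. For these genes the annotated coding transcript is much the longer one.

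Mrps26 (4.03% and 3.15%), Mrps16 (5.15% and 5.39%), Mrpl3 (5.16% and 3.97%), Mrpl15 (7.14% and 6.72%), Mrps25 (9.91% and 8.27%) and Mrpl32 (10.1% and 10.3%) also had low coding shares in the alignment-based table. Each of these 6 stayed under 50% in the second table. Mrps24, Mrpl19, Mrpl35, Mrpl47, Mrps5 and Mrps35 were under 50% in both tables as well, between 17.99% and 48.50% in the alignment-based one.

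In a few genes the tables were at odds. The coding share of Mrpl23 was 0% and 28.6% in the alignment-based table and 92.9% and 94.7% in the second. The coding share of Mrps14 was 6.04% and 4.91% in the alignment-based table and 100% and 90.5% in the second. There the counts moved from Mrps14-201, of 674 bases and the decay class, to the coding Mrps14-202, of 787 bases. Mrps11 went from 35.1% and 36.2% to 95.4% and 95.7%. In the opposite direction Mrpl27 went from 96.0% and 96.3% to 44.2% and 41.6%.

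**Figure D5:**
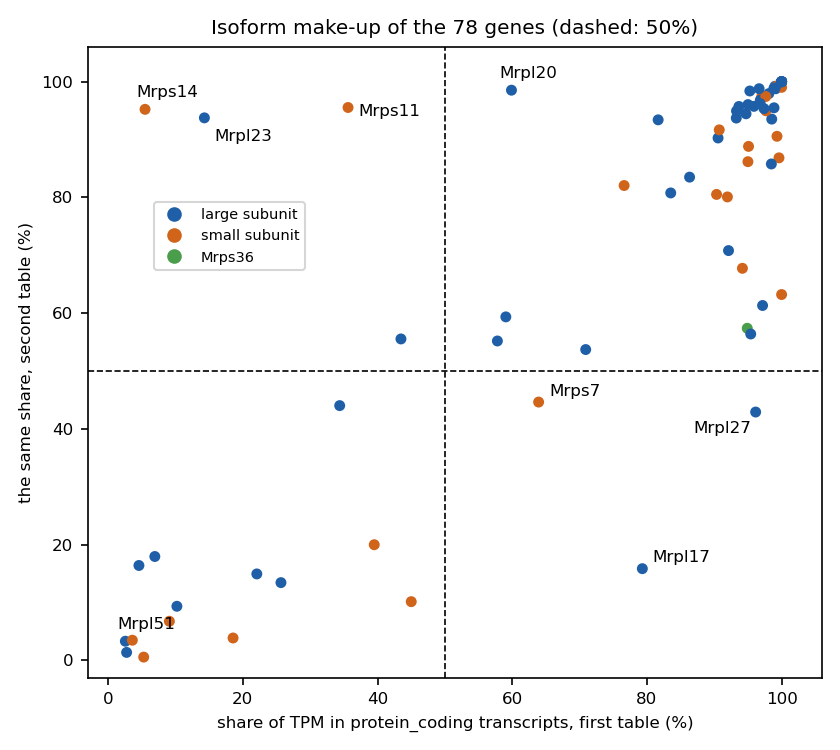
Share of each gene's TPM in transcripts of the protein_coding class, mean of both libraries, in the alignment-based table (x, %) and the second table (y, %), with 50% as dashed lines. Most genes lie at the upper right, 14 at the lower left under 50% in both, and Mrps14, Mrpl23, Mrps11, Mrpl27 and Mrpl17 are far from the diagonal.

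The positions of the genes, which the rule did not use, were compared next. The genes are spread over 17 chromosomes, and 33 of the 78 (42.3%) start within 1000 bases of the start of a protein-coding gene on the opposite strand, head to head. The same held for 15.8% of the detected protein-coding genes, 19.0% of the cytosolic ribosomal protein genes and 36.5% of the respiratory chain genes. With a limit of 300 bases, chosen after seeing the data, the count was 22 members (28.2%), beside 11.1% of the detected protein-coding genes and 27.1% of the respiratory chain genes.

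Some partners that also act in mitochondria were picked out after their values were seen. The share of such partners, among the members or among other genes, was not counted. Mrpl46 and Mrps11 on chromosome 7 are partners of each other, at 15.4 and 14.6 TPM and at 29.0 and 25.9 TPM. Mrpl36 (20.96 and 20.45 TPM) faces Ndufs6, a complex I subunit with 138.1 and 135.7 TPM, and Mrpl47 (14.9 and 14.2 TPM) faces Ndufb5, another with 178.6 and 170.3 TPM. Mrps12 faces the mitochondrial seryl-tRNA synthetase gene Sars2 across 172 bases (24.2 and 24.0 against 6.83 and 5.81 TPM). Mrpl43 faces Twnk, the mitochondrial DNA helicase, and Mrps27 faces Ptcd2, a mitochondrial RNA-binding protein.

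Levels on either side of such a start were often far apart. Mrpl30 had 117.6 and 112.5 TPM, and Mitd1, which starts 66 bases away, 3.30 and 3.69 TPM. Mrpl10 had 47.2 and 46.2 TPM and Lrrc46 0.31 and 0.35 TPM. Mrpl49 (19.99 and 19.74 TPM) was the lower of its pair, with Fau, a cytosolic ribosomal protein gene, at 381.9 and 392.7 TPM. Several of these genes overlap, Mrpl46 and Mrps11 by 413 bases, and whether the counting used strand is not given in the sources used here.

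Promoter windows from RefSeq (GRCm38.p6, 250 bases before to 50 after a start) were matched for 69 of the 78 genes by symbol. They were searched on both strands for the core letters of factors known at genes of mitochondrial proteins: NRF1 (GCATGCGC), ETS and GABP (CCGGAAGT) and YY1 (AAGATGGCG). SP1 (GGGGCGGGG) and CREB (TGACGTCA) were searched in the same way. The NRF1 letters were found for 8 members (11.6%), against 5.93% of the 9783 detected protein-coding genes with a window and 3.05% of all 27025 genes with one.

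The ETS letters were found for 12 members (17.4%, against 9.02% of detected and 4.31% of all genes), and the YY1 letters for 8 (11.6%, against 3.58% and 1.64%). The SP1 letters were found for 13 (18.8%, against 25.3% and 12.9%) and the CREB letters for 2 (2.90%, against 3.57% and 2.03%). At least one of the first 3 motifs was present for 26 members, beside 17.3% of the detected genes. Among 64 cytosolic ribosomal protein genes with a window, the NRF1, ETS and YY1 shares were 4.69%, 18.75% and 6.25%. Among 67 respiratory chain genes they were 14.9%, 7.46% and 10.4%, so shares like those of the members also occurred in these lists.

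Parts of 3 windows are shown with these letters in capitals. Mrps27 (chr13:99344696-99344815, plus strand) holds ETS and YY1 letters, from 90 bases before to 30 after the start. Mrpl33 (chr5:31613861-31613980, plus strand) holds NRF1 and ETS letters next to each other, over the same span. Mrpl10 (chr11:97041428-97041581, plus strand) holds the NRF1 letters, within the 154 bases before the start.
Mrps27 promoter: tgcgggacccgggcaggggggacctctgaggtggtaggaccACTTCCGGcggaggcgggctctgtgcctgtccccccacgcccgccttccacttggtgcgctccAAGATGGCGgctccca
Mrpl33 promoter: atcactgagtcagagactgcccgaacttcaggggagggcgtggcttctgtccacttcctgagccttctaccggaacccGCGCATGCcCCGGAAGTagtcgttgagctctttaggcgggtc
Mrpl10 promoter: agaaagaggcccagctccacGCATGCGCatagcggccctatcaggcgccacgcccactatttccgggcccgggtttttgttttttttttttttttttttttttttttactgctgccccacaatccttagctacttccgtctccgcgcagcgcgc

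Genes with these letters had both high and low levels. Mrpl33, with the NRF1 and ETS letters side by side, was second by mean TPM, and Mrps27, with ETS and YY1 letters, had 18.7 and 17.1 TPM. In the window of Mrps11 the YY1 letters lie on the opposite strand. They start 108 bases before the RefSeq start of Mrps11, and lie 58 bases after that of its partner Mrpl46, whose start is 42 bases away from that of Mrps11. A match of letters is a description of the sequence and was not tested as a binding site.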

How the data were processed

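Total RNA-seq tables of 2 adrenal libraries were analysed. Per the file headers, the authors deposited a gene table and a transcript table with expected counts, not normalised, and TPM over all entries with lower and upper bounds, and a second transcript table with estimated counts and TPM. The bounds are the authors' own. Labels give mm10 and GENCODE M21, with the aligner and counting tools not given in the sources used here. Replicates had 36982665 and 38984236 expected counts.

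Ratios between libraries were taken after TMM scaling (edgeR 4.0.16, R 4.3.3) with a prior of 0.5 counts. DESeq2 1.42.0 size factors, library totals and spike-in totals (96 spike-ins) were alternatives and differed from TMM by under 0.1 on the log2 scale. Levels used TPM with a pseudocount of 0.1 on the log2 scale. Copies were found with blastn 2.17.0 in the GENCODE transcripts. Intervals have a level of 95%. Ratios were also taken on simulated Poisson counts and centred on their median, so the TMM scaling itself was not tested. Python 3.11.15, pandas 2.3.3, scipy 1.17.1 and biopython 1.88 were used. The members and lists were chosen with earlier results of these data known. Named genes were the extremes by level, ratio and table difference, the role groups, low coding shares and list extremes; other genes named, such as head-to-head partners, were chosen after their values were seen. Promoter windows were matched by symbol, and protein sequences were not used here.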

Additional observations from a re-analysis of the deposited data

How the results depend on the processing

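The median level of the 78 genes was 4.96 on the log2(TPM + 0.1) scale. It was 5.72 in the second table, 6.54 with TPM rescaled over nuclear protein-coding genes, 5.001 with a pseudocount of 1, 4.90 as a mean over genes, and 4.94 to 4.98 with either library left out. The large minus small subunit difference of 0.19 reversed to -0.071 with means over members and was 0.15 to 0.23 with a library left out. The bacterial-type minus mitochondria-specific difference of 0.17 was 0.24 in the second table, 0.16 with a pseudocount of 1, 0.10 with means and, chosen after seeing the data, 0.17 without Mrpl23. The SD among members of 0.94 was 0.83 in the second table, 0.87 with a pseudocount of 1 and 0.78 over detected members, the interquartile range was 1.14, and with a library left out the SD was 0.90 to 0.98. Detected members numbered 77 to 78 with a library left out, and members under a 50% coding share 18 in each case. The count past 25% between libraries rose from 0 to 1 (Mrpl23) with a minimum of 10 counts or no filter, and was 0 under every other scaling and count minimum run. Members past 1.5-fold between tables, uncentred, numbered 56 (49 to 58 with a library left out), 16 at 2-fold, and 9 after centring, chosen after seeing the data. Copies at 1 TPM numbered 5 and, by a count also added after seeing the data, 2 in the second table. List means in place of medians were 34.4 against 38.2 TPM for other mitoribosome proteins, 13.8 against 8.92 for assembly, 23.8 against 14.1 for translation factors, 12.3 against 10.3 for tRNA synthetases and 16.5 against 18.2 for mitochondrial transcription. With the TPM of Mrpl23-ps1 added to Mrpl23, chosen after seeing the data, the exit tunnel median rose from a mean of 14.5 to 23.9 TPM. Counting error limited the fold between libraries most for Mrpl23 (0.912 to 1.93), the member with the fewest counts. The cause of these shifts was not tested. No paired analysis was possible because the series has a single group.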
